A study of Homo sapiens with 4 samples.

Results

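The genes described here are the splicing regulators of the hnRNP family other than hnRNPK and PTBP1, the serine/arginine-rich (SR) splicing factors and the regulators of tissue-specific splicing of the CELF, MBNL, RBFOX, QKI and ESRP families. They were chosen by gene family and name, 39 genes in all. Of these, 37 were listed in the tables of all 4 libraries, which share 24039 genes. SRSF8 and ESRP1 were not analysed here. The RNA came from UM-UC-3 cells, an established human bladder cancer cell line, collected 48 h after transfection with siRNA at 75 nM, with 1 library per condition and 4 libraries in all. The control cells received a control siRNA. The other cells received siRNA against hnRNPK (given as a mixture of 2 siRNAs), against PTBP1 or against the long non-coding RNA lncRNA-LBCS, so every library, the control included, came from transfected cells of 1 line. The study sequenced these RNAs to find genes whose mRNA level moved after hnRNPK knockdown, and it does not describe the PTBP1 and lncRNA-LBCS libraries.

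Heterogeneous nuclear ribonucleoproteins (hnRNPs) coat nascent transcripts and often repress the exons they bind, whereas SR proteins bind exonic enhancers, recruit the spliceosome and often promote exon inclusion. Many splice sites are set by the balance between both groups. HnRNPK binds C-rich RNA and PTBP1 binds pyrimidine tracts. The tissue regulators give muscle, brain and epithelium their own splicing patterns: MBNL, CELF, RBFOX and QKI proteins act in muscle and brain differentiation, and ESRP proteins set the epithelial pattern. Many SR and hnRNP genes carry exons whose inclusion or skipping sends the mRNA to nonsense-mediated decay, by which the proteins adjust their own amount.

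The siRNA sequences are shown because all 3 comparisons rest on them and because an siRNA can also pair through its seed with other mRNAs. Each sense strand is written 5′ to 3′ as in the labels, and capitals mark the 7 bases complementary to the seed of the guide strand (guide bases 2 to 8), which are the letters a seed match in an mRNA would have.
control siRNA: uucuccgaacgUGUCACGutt
hnRNPK siRNA-1: ggguuguagagUGCAUAAatt
hnRNPK siRNA-2: gccuccaucuaGAAGAGAutt
PTBP1 siRNA-1: gccucaacgucAAGUACAatt
PTBP1 siRNA-2: cccucauugacCUGCACAatt
lncRNA-LBCS siRNA-1: gcugcucauuuGUCUGAUctt
lncRNA-LBCS siRNA-2: ggugguagucaACACAAAutt
The 19 paired bases of these siRNAs matched no transcript of the 37 genes. The 7 bases in capitals occurred in the longest annotated 3′ UTR of 9 of the 37 genes for hnRNPK siRNA-1 (24.3%, against 10.98% of 11919 genes) and of 7 for hnRNPK siRNA-2 (18.9%, against 19.7%). For the PTBP1 siRNAs they occurred in 9 genes (24.3%, against 13.1%) and 5 genes (13.5%, against 15.0%). For the lncRNA-LBCS siRNAs the numbers were 2 genes (5.41%, against 9.38%) and 8 genes (21.6%, against 18.2%), and for the control siRNA 1 gene, QKI (2.70%, against 3.20%). HNRNPA2B1 and RBFOX2 were the members with the 7 bases of both hnRNPK siRNAs. Their sites are given below with 10 bases on either side, in the sense of the mRNA, with the matched bases in capitals and positions on GRCh38.
HNRNPA2B1, siRNA-1, chr7:26192224-26192250, minus strand: atctcagtcaTGCATAAatatgcagtg
HNRNPA2B1, siRNA-2, chr7:26190658-26190684, minus strand: gtcttaccctGAAGAGAaagttgtagg
RBFOX2, siRNA-1, chr22:35740335-35740361, minus strand: gattctctgtTGCATAAaacactatat
RBFOX2, siRNA-2, the first of 2 sites, chr22:35743740-35743766, minus strand: agcagaagtgGAAGAGAtctttctgca
A match says only that these letters are present.

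The libraries held 54305549 to 70236103 reads, and 3 reads corresponded to 0.0427 to 0.0552 CPM (reads per gene relative to the library total, the deposited unit). The level of HNRNPK was 783 CPM in control cells and 188 CPM after its knockdown (24.0%), and PTBP1 was at 280.0 CPM and at 89.7 CPM in the si-PTBP1 library (32.0%). The gene that both lncRNA-LBCS siRNAs match (ENSG00000228412) was covered by 110 control reads and by 103 reads of the library made with them, which was 81.8% of the control level with a 95% interval of 61.9% to 108%. A level of the target below that of the control library was therefore not detectable at this depth, and that library is called the si-lncRNA-LBCS-labelled library, after its label alone. The gene had 1.79 CPM in the control library, 3.43 with si-hnRNPK, 3.82 with si-PTBP1 and 1.47 in that library. Why it was higher in the si-hnRNPK and si-PTBP1 libraries was not tested. Of 13 markers of urothelial differentiation, 8 were listed in all 4 libraries and 2 (FOXA1 and PPARG) reached 1 CPM. Of keratins 7, 8, 18 and 19, 3 reached 1 CPM, with a summed level of 149 to 214 CPM. All 7 mesenchymal markers were detected, with sums of 1683 to 2595 CPM. Most of each sum was VIM (2343 CPM in the control library). VIM was lower than control in every knockdown library, FN1, CDH2 and SNAI2 were higher, and the other markers went both ways. Of 7 white blood cell markers, 2 were listed in all 4 libraries, with sums of 0.342 to 2.80 CPM. The part of these marker levels in the results below was not tested.

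Most of these regulators were abundant in the control library. Compared per kilobase of exon, HNRNPC, an hnRNP that binds uridine tracts and packages nascent RNA, stood highest at 145 CPM per kb. HNRNPF, which binds G-rich tracts, followed at 116, and the SR proteins SRSF2 and SRSF1 had 109 and 101 CPM per kb. HNRNPA1, an hnRNP that often acts as a splicing repressor, had 77.7 CPM per kb. In each group of related genes the levels spread widely. Among hnRNP A/B and D genes they ran from HNRNPA1 down to HNRNPA0 at 6.96 CPM per kb. Among hnRNP C, L, M, R and Q genes they ran from HNRNPC down to HNRNPM at 14.0, among hnRNP F/H genes from HNRNPF down to HNRNPH3 at 4.19, and among hnRNP U genes from HNRNPUL1 at 23.6 down to HNRNPUL2 at 2.87 CPM per kb. The 8 SR proteins ran from SRSF2 down to SRSF4 at 5.998, and the 4 SR-related genes from TRA2B at 31.9 down to TRA2A at 6.14 CPM per kb. Among the tissue regulators MBNL1 was highest at 29.2 CPM per kb, and MBNL2 had 3.20. ESRP2, a regulator of the epithelial splicing pattern, was the lowest member at 0.120 CPM per kb, and it was under 1 CPM in every library. Its levels were 0.668 CPM in the control library, 0.295 with si-hnRNPK, 0.660 with si-PTBP1 and 0.854 in the si-lncRNA-LBCS-labelled library. HNRNPU and SRSF11 (both 23.2 CPM per kb) and HNRNPUL1 were neighbours in the order of levels, and with 1 library per condition their spread between cultures is unknown.

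**Figure D1:**
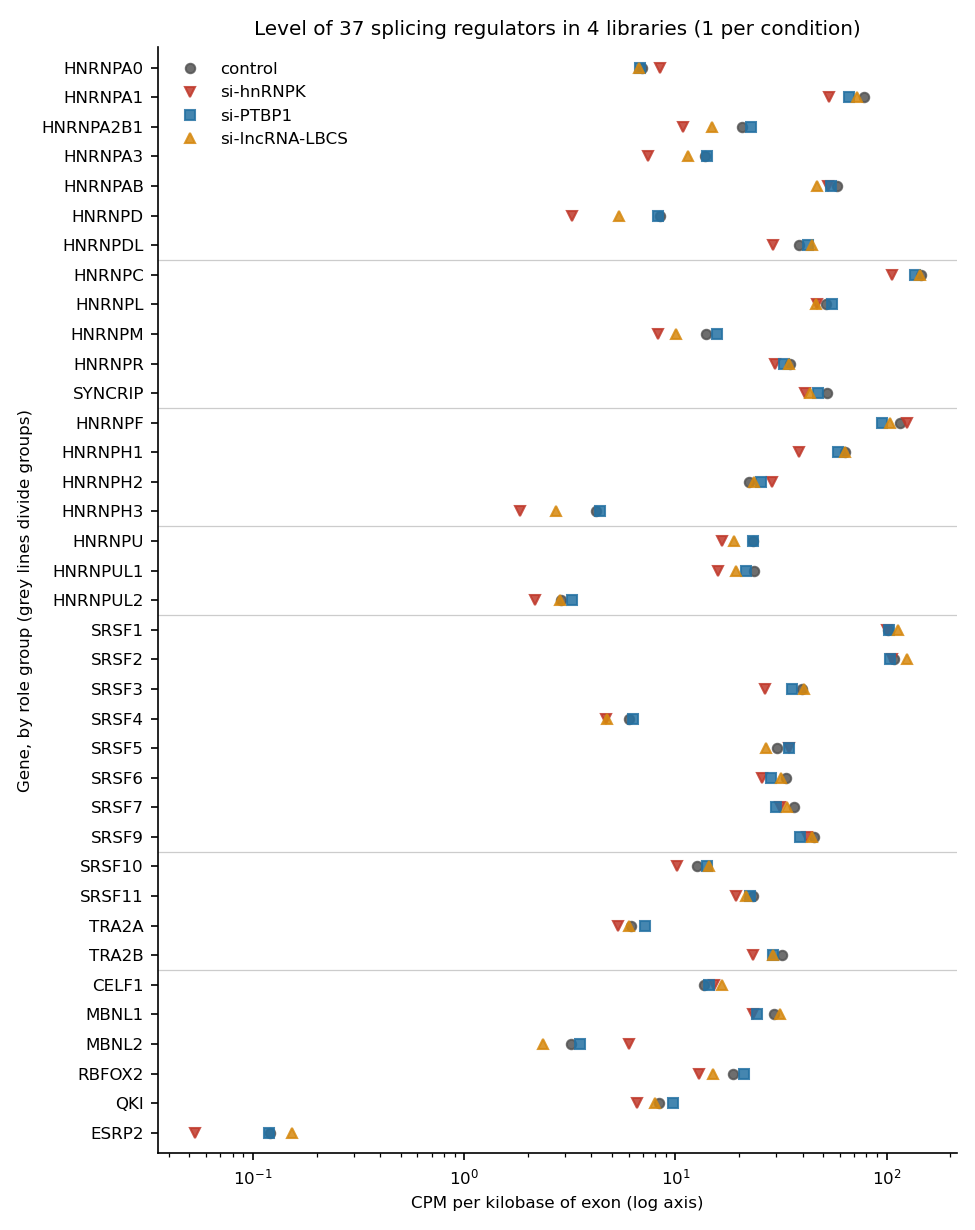
Level of each of the 37 listed splicing regulators in CPM per kilobase of exon (log axis) in the control, si-hnRNPK, si-PTBP1 and si-lncRNA-LBCS libraries, 1 point per library, with grey lines between role groups. HNRNPC lies at the right at 145 CPM per kb in the control library and ESRP2 at the far left at 0.120.

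Together the 37 genes took 8233 CPM of the control library (0.823% of its reads), 6552 CPM with si-hnRNPK, 7908 CPM with si-PTBP1 and 7822 CPM in the si-lncRNA-LBCS-labelled library. The si-hnRNPK library held 79.6% of the control sum, and the other libraries 96.05% and 95.004%. When the libraries were scaled by median-of-ratios factors, which adjust for the level of most genes, these shares were 86.0%, 88.0% and 95.6%, so the si-hnRNPK and si-PTBP1 libraries lay close together. The si-hnRNPK library was the lowest of the 4 for 26 of the 37 genes, the si-lncRNA-LBCS-labelled library for 5, the si-PTBP1 library for 4 and the control library for 2. When scaled, the si-hnRNPK library was the lowest for 19, the si-PTBP1 library for 12, the si-lncRNA-LBCS-labelled library for 5 and the control library for 1. The same counts over all genes are not given here, so they are not read as a trait of these genes. Of all 13672 genes compared, 58.4% were lower with si-hnRNPK than in the control library before scaling. Summed over the 19 hnRNP genes, the level was 5093 CPM in the control library and 3849 CPM with si-hnRNPK (75.6%, or 81.7% when scaled, against 87.5% scaled with si-PTBP1). For the 8 SR proteins the sums were 1634 and 1475 CPM (90.3%), for the 4 SR-related genes 724 and 561 CPM (77.6%, or 83.9% when scaled) and for the 6 tissue regulators 783 and 666 CPM. The SR protein sum was 97.6% of control with si-hnRNPK and 86.8% with si-PTBP1 when scaled, while unscaled it was 94.7% with si-PTBP1, so the order of both libraries depended on the scale. In bulk RNA fewer expressing cells and less RNA per cell cannot be told apart.

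To see how these genes moved, changes were taken as differences in log2(CPM + 1) between a knockdown library and the control library, for genes at 1 CPM or more in either library. This scale understates the change of low genes. With 1 library per condition there is no replicate check and no test, and the intervals given are 95% exact Clopper-Pearson intervals from the reads of both libraries, which cover counting error only. Of the 37 genes, 36 passed the filter in each comparison (ESRP2 did not). The scale of the libraries also matters: median-of-ratios factors over 12362 genes, on the log2 scale relative to the control library, were -0.11 for the si-hnRNPK library, 0.13 for the si-PTBP1 library and -0.0091 for the si-lncRNA-LBCS-labelled library. Dividing by them raises the changes of the si-hnRNPK library and lowers those of the si-PTBP1 library, and such values are called scaled. The 3 comparisons share the control library, so their values are only set side by side.

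In the si-hnRNPK library 30 of the 36 genes were lower than in the control library and 6 were higher, while 58.4% of all 13672 genes were lower. The direction counts of the groups below stand beside that same share. HNRNPD and HNRNPH3 were at least 2-fold lower and no member was 2-fold higher, while over all 13672 genes 3.93% were 2-fold lower and 3.55% were 2-fold higher. At 1.5-fold, 6 members were lower (HNRNPD, HNRNPH3, HNRNPA2B1, HNRNPA3, HNRNPM and HNRNPH1) and 1, MBNL2, was higher, against 15.8% of all genes lower and 9.89% higher. The 6 lower members were 16.7% of the 36, a share near that of all genes. The 6 lower genes were all hnRNPs, and no SR protein or SR-related gene passed 1.5-fold in either direction. The median change of the members was -0.35, beside -0.11 over all genes, and 28 members lay below the median of all genes. With median-of-ratios scaling the member median was -0.24, with 27 genes lower, against 6876 of all 13672 genes. On that scale 6 members were 1.5-fold lower and 1 higher, against 12.2% and 12.96% of all genes. The counting interval lay below 100% of control for 30 of the 37 listed genes, above it for 6 and around it for 1. These intervals are unscaled, and the same count over all genes is not given here. The interval of SRSF9, for example, was 90.0% to 95.3%, while its scaled change was 0.0014.

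**Figure D2:**
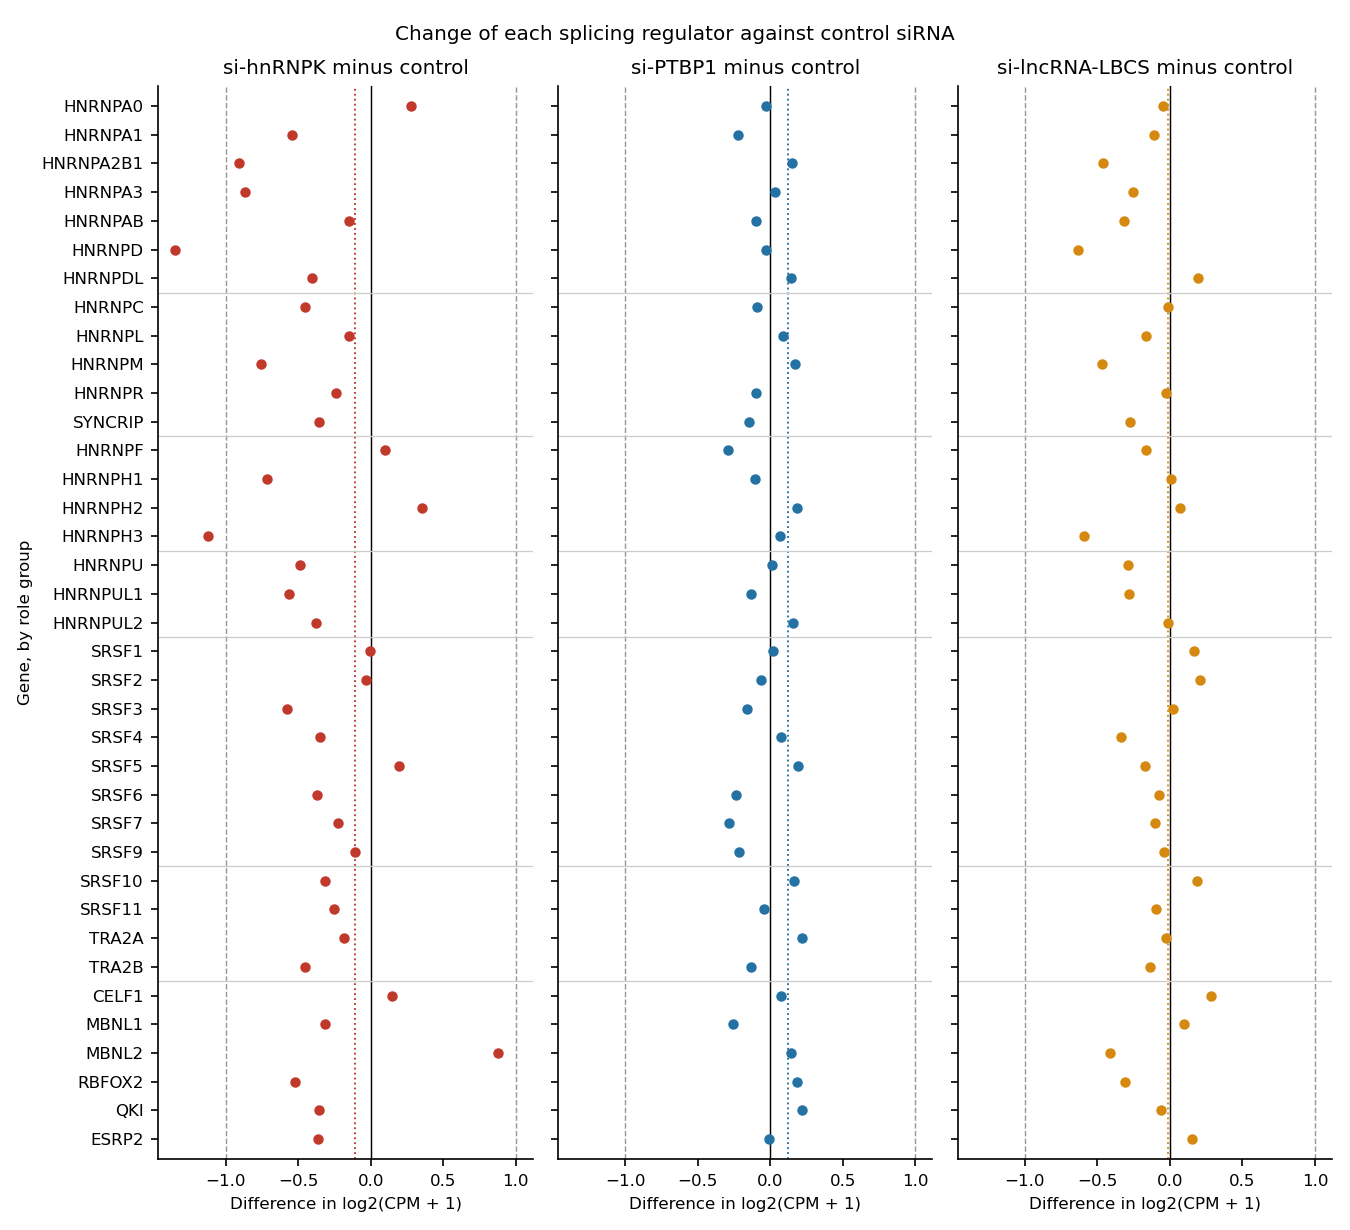
Change of each of the 37 listed splicing regulators (x axis, difference in log2(CPM + 1)) against the control library for the si-hnRNPK, si-PTBP1 and si-lncRNA-LBCS libraries, 1 point per gene and 1 library per condition, with dashed lines at 2-fold and a dotted line at the median of all genes. ESRP2, under 1 CPM, is shown but was not counted. In the si-hnRNPK library HNRNPD at -1.35 and HNRNPH3 at -1.12 lie farthest left and MBNL2 at 0.88 farthest right, while the si-PTBP1 values stay between -0.29 and 0.22.

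HNRNPD (ENSG00000138668), also known as AUF1, binds AU-rich elements and affects the decay of many mRNAs. It lies on chr4:82352498-82374503 of GRCh38, minus strand. Its level was 59.1 CPM in the control library, 22.6 with si-hnRNPK, 57.8 with si-PTBP1 and 37.8 in the si-lncRNA-LBCS-labelled library. The control and si-PTBP1 libraries were thus nearly level and the other libraries lower. With si-hnRNPK it was at 38.3% of control (95% interval 35.9% to 40.9%), a change of -1.35 (-1.24 when scaled), and it was the largest decrease among the members. In the si-lncRNA-LBCS-labelled library it was at 63.9% (60.8% to 67.2%). Its relative HNRNPDL, which also binds AU-rich RNA, had 211, 159, 232 and 241 CPM in the same order of libraries, lowest with si-hnRNPK and above control in the remaining libraries.

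HNRNPH3 (ENSG00000096746; chr10:68331174-68343191, plus strand), a member of the hnRNP F/H group that binds G-rich RNA, had 22.5 CPM in the control library, 9.83 with si-hnRNPK, 23.6 with si-PTBP1 and 14.6 in the si-lncRNA-LBCS-labelled library. As for HNRNPD, the si-hnRNPK library was lowest and the si-PTBP1 library close to control. The level with si-hnRNPK was 43.7% of control (39.4% to 48.3%), a change of -1.12 (-1.02 when scaled). Against the geometric mean of the other 3 libraries it was -0.94, short of 2-fold. In the si-lncRNA-LBCS-labelled library it was 64.8% (59.7% to 70.3%). The F/H genes did not move alike. HNRNPH1 (chr5:179614178-179634784, minus strand) had 603, 366, 559.5 and 605 CPM, lowest with si-hnRNPK, at 60.8% of control (59.7% to 61.8%), and at 92.8% (91.4% to 94.2%) with si-PTBP1. HNRNPH2 had 49.7, 64.0, 56.5 and 52.3 CPM and was highest with si-hnRNPK, at 129% of control (123% to 135%). HNRNPF had 377, 404.5, 308.5 and 336 CPM, the si-hnRNPK library being 107% of control (105% to 109%) and the si-PTBP1 library 81.8% (80.2% to 83.4%). HNRNPH2 shares 362 exon bases on the same strand with the read-through gene RPL36A-HNRNPH2, HNRNPUL2 shares 2391 with HNRNPUL2-BSCL2 and SRSF1 shares 1890 with AC015813.2, so the counts of these 3 genes are uncertain.

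The hnRNP A/B and D genes had a median change of -0.54 with si-hnRNPK, and 6 of the 7 were lower. HNRNPA2B1 (ENSG00000122566; chr7:26173057-26201529, minus strand), which binds UAG motifs in splicing and RNA transport, had 191 CPM in the control library, 101 with si-hnRNPK, 212 with si-PTBP1 and 138.5 in the si-lncRNA-LBCS-labelled library. With si-hnRNPK it was at 53.0% of control (51.3% to 54.7%), a change of -0.91. It holds both hnRNPK seed matches printed above. HNRNPA3 (chr2:177212563-177223958, plus strand), a close relative of HNRNPA2B1, had 82.9, 44.9, 84.9 and 69.4 CPM in the same order, and with si-hnRNPK it was at 54.2% of control (51.7% to 56.9%). HNRNPA1 had 396, 272, 338 and 366.5 CPM, with changes of -0.54, -0.23 and -0.11. HNRNPA0 was the member of this group that was higher with si-hnRNPK, at 60.7, 73.8, 59.3 and 58.8 CPM, which is 122% of control (116% to 127%). HNRNPA1 has 74 annotated pseudogenes by name (23 of them listed in the control table) and HNRNPA3 has 16, and reads could be split between such copies.

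Among the hnRNP C, L, M, R and Q genes all 5 were lower with si-hnRNPK, with a median change of -0.36. HNRNPM (chr19:8444767-8489114, plus strand), a regulator of exon skipping, had 78.7 CPM in the control library, 46.2 with si-hnRNPK, 88.4 with si-PTBP1 and 56.7 in the si-lncRNA-LBCS-labelled library. It was at 58.8% of control with si-hnRNPK (55.97% to 61.67%) and at 72.0% in the si-lncRNA-LBCS-labelled library (69.1% to 75.1%). The most abundant member, HNRNPC, had 1059, 774, 994 and 1049 CPM, with changes of -0.45, -0.09 and -0.01. The remaining genes of the group, HNRNPL, HNRNPR and SYNCRIP (hnRNP Q), had changes from -0.36 to -0.15 with si-hnRNPK. The 3 hnRNP U genes, which include the chromatin scaffold protein HNRNPU, were also all lower, from -0.57 (HNRNPUL1) to -0.38 (HNRNPUL2), with a median of -0.49. HNRNPUL1 had 154.5, 104, 141 and 127 CPM, and HNRNPUL2 had 15.5, 11.7, 17.4 and 15.3 CPM.

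**Figure D3:**
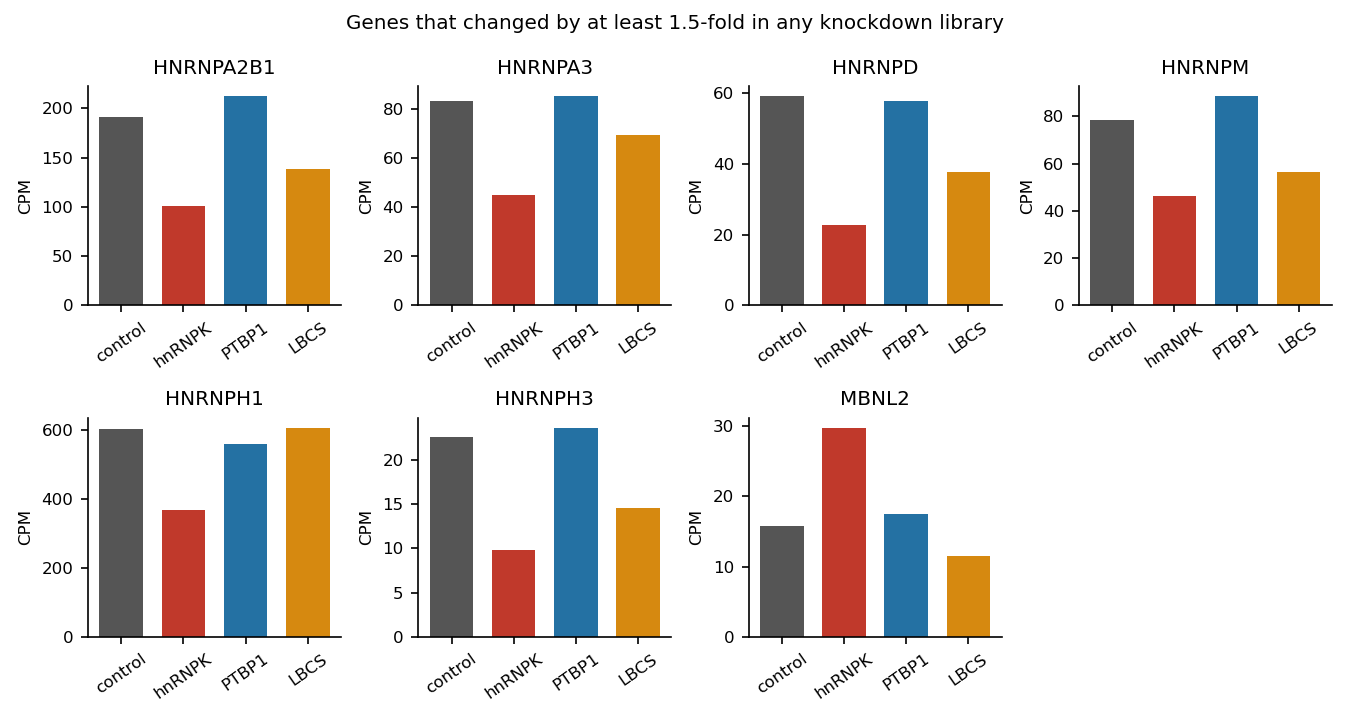
CPM in each library (x axis: control, hnRNPK, PTBP1 and LBCS for the control, si-hnRNPK, si-PTBP1 and si-lncRNA-LBCS libraries, 1 library each) of the 7 genes that changed by 1.5-fold or more in any comparison, with linear axes from 0 that differ between panels. The si-hnRNPK bar is the lowest for HNRNPD at 22.6 CPM and for the other 5 hnRNP genes, and the highest for MBNL2 at 29.7 CPM.

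The 8 SR proteins had a median change of -0.17 with si-hnRNPK, and 7 of them were lower. The median of the 19 hnRNP genes was -0.45, and the difference between both groups was not tested. When the libraries were scaled by median-of-ratios factors, the SR protein median was -0.06 and 4 of the 8 were lower, so the direction of SRSF1, SRSF2 and SRSF9 depended on the scale. SRSF1, which promotes inclusion of many exons, had 337 CPM in the control library, 337 with si-hnRNPK, 342 with si-PTBP1 and 378.5 in the si-lncRNA-LBCS-labelled library, and its level with si-hnRNPK was 99.8% of control (97.8% to 101.8%). SRSF2, the most abundant SR protein per kilobase, had 328, 321, 313 and 378 CPM. SRSF3, the smallest SR protein and a factor in mRNA export, was the SR protein lowest relative to control, at 284, 190, 254 and 288 CPM, which is 66.8% of control with si-hnRNPK (65.2% to 68.5%), just short of 1.5-fold. SRSF4 had 53.3, 41.7, 56.1 and 41.9 CPM, lower with si-hnRNPK and in the si-lncRNA-LBCS-labelled library. SRSF5 was the SR protein that was higher with si-hnRNPK (115% of control, 111% to 118%). The other SR proteins, SRSF6, SRSF7 and SRSF9, lay between 77.3% and 92.6% of control.

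The 4 SR-related genes were all lower with si-hnRNPK, with a median of -0.28. TRA2B, a partner of SR proteins that binds GAA repeats, had 376, 274, 342 and 341 CPM, which is 72.9% of control with si-hnRNPK (71.4% to 74.4%). Its paralogue TRA2A had 21.6, 18.9, 25.3 and 21.2 CPM, at 87.4% (80.5% to 94.9%). SRSF10 and SRSF11 were at 80.3% and 83.7% of control.

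The tissue regulators went both ways with si-hnRNPK. MBNL2 (ENSG00000139793; chr13:97221434-97394120, plus strand), a muscleblind protein, was the member that was higher by 1.5-fold. It had 15.7 CPM in the control library, 29.7 with si-hnRNPK, 17.4 with si-PTBP1 and 11.5 in the si-lncRNA-LBCS-labelled library. It was high with si-hnRNPK alone, at 189% of control (174% to 205%), a change of 0.88 (0.99 when scaled), and it was lowest in the si-lncRNA-LBCS-labelled library, at 73.4% (66.8% to 80.7%). Its paralogue MBNL1 had 292, 234, 244 and 312.5 CPM, so the paralogues differed in direction with si-hnRNPK, MBNL1 being at 80.2% of control (78.4% to 82.0%). RBFOX2, which binds UGCAUG, had 186.5, 130, 212.5 and 150.1 CPM, and QKI had 146, 114, 170 and 139 CPM. CELF1, which binds GU-rich RNA, was at 111% of control with si-hnRNPK (108% to 114%). ESRP2 was at 44.1% with an interval of 23.1% to 80.3%, and its low level leaves its change imprecise.

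**Figure D4:**
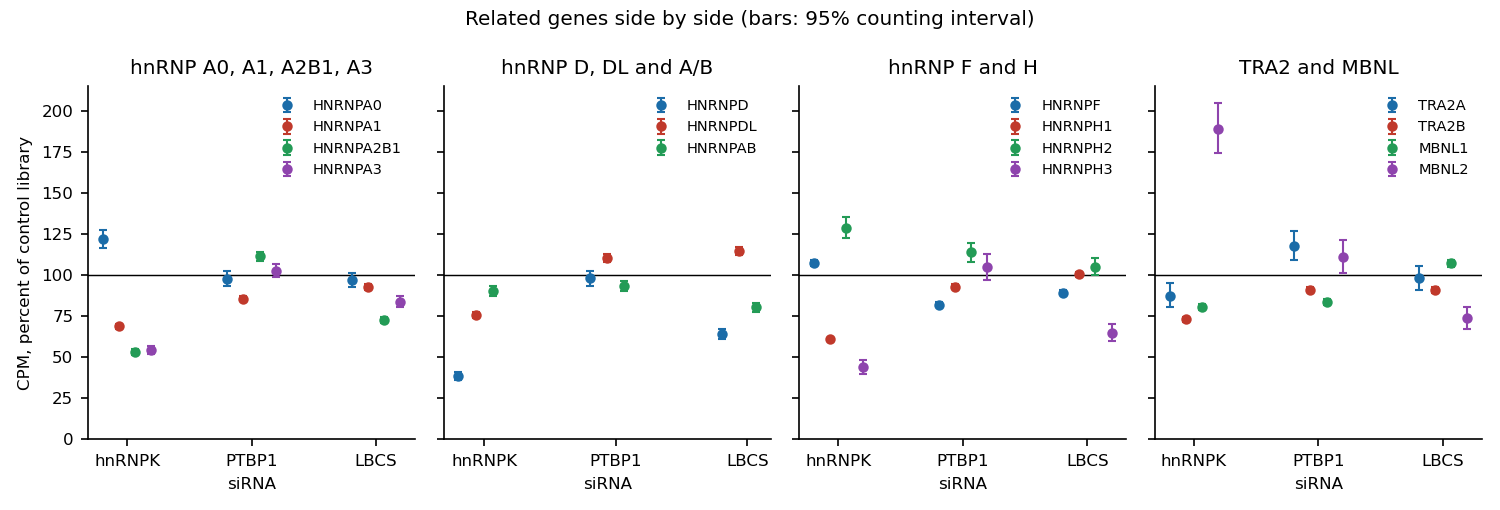
CPM of related genes as a percent of the control library (y axis, from 0) with hnRNPK, PTBP1 or LBCS (lncRNA-LBCS) siRNA, 1 library each, in panels for hnRNP A0 to A3, hnRNP D, DL and A/B, hnRNP F and H, and TRA2 and MBNL genes. Bars are 95% counting intervals and the line marks 100%, and with hnRNPK siRNA the points spread from HNRNPD at 38.3% to MBNL2 at 189%.

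With si-PTBP1 no member passed 1.5-fold against the control library. Against the geometric mean of the other 3 libraries 3 members, HNRNPH3 (0.63), HNRNPD (0.63) and HNRNPA2B1 (0.61), were 1.5-fold higher. On that reference 1504 of all genes were also 1.5-fold higher and 318 lower. Against the control library alone these members were at 104.7%, 97.8% and 111%, and the reference includes the si-hnRNPK library, where all of them were low. Changes against control ran from -0.29 (HNRNPF) to 0.22 (TRA2A), with a median of -0.01 beside 0.12 over all 13855 genes. Of the members, 18 were higher and 18 lower, whereas 36.5% of all genes were lower. Over all genes 12.1% were 1.5-fold higher and 3.12% lower, and 2.92% were 2-fold higher and 0.613% lower. With median-of-ratios scaling the member median was -0.13 and 25 members were lower, against 6770 of all 13855 genes. The unscaled counting interval lay above 100% of control for 14 of the 37 listed genes, below it for 16 and around it for 7. The same count over all genes is not given here, and these counts depend on read depth and on the scale. Group medians were -0.03 for the 19 hnRNP genes (-0.16 when scaled), -0.11 for the SR proteins (-0.24 when scaled, with 7 of 8 lower), 0.06 for the SR-related genes (-0.07 when scaled) and 0.14 for the tissue regulators (0.02 when scaled). After HNRNPF the lowest values were those of SRSF7 at 82.0% of control (79.5% to 84.6%) and MBNL1 at 83.7% (81.8% to 85.6%). TRA2A was at 117% (109% to 127%), QKI at 116% (113% to 120%) and SRSF5 at 114.5% (111% to 118%).

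In the si-lncRNA-LBCS-labelled library no member passed 2-fold, and HNRNPD (-0.63) and HNRNPH3 (-0.59) were lower by 1.5-fold, of which HNRNPH3 fell short of it when scaled (-0.58). Against the geometric mean of the other 3 libraries neither passed 1.5-fold, and MBNL2 (-0.75) was lower by it. On that reference 597 of all genes were 1.5-fold lower and 177 higher. Over all 13492 genes 5.74% were 1.5-fold lower and 4.14% higher, and 1.01% were 2-fold lower and 0.378% higher. Of the 36 genes 27 were lower and 9 higher, with a median of -0.10 beside -0.01 over all genes, of which 51.8% were lower. The hnRNP genes had a median of -0.17 with 16 of 19 lower, and the SR proteins had -0.06 with 5 of 8 lower. HNRNPM (-0.47), HNRNPA2B1 (-0.46), MBNL2 (-0.41) and SRSF4 (-0.34) followed. On the other side CELF1 was at 122% of control (119% to 125%), SRSF2 at 115% (113% to 117.5%), HNRNPDL at 115% (112% to 117%) and SRSF1 at 112% (110.2% to 114%).

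The genes that act around these regulators were counted from 6 lists, each to be read beside the shares of all genes. With si-hnRNPK 15.8% of all genes were 1.5-fold lower (12.2% when scaled) and 3.93% were 2-fold lower (2.74% when scaled). In the si-lncRNA-LBCS-labelled library the shares of all genes were 5.74% (5.54% when scaled) and 1.01%. Among kinases and phosphatases of SR proteins, 1 of 10 was 2-fold lower with si-hnRNPK and 2 were 1.5-fold lower (1 when scaled). PRPF4B, a kinase of the spliceosome, had 179 CPM in the control library, 82.0 with si-hnRNPK, 166 with si-PTBP1 and 150.02 in the si-lncRNA-LBCS-labelled library. The phosphatase subunit PPP1CC was higher, at 110% of control (107% to 113%). Of 3 nuclear import receptors TNPO1 was 1.5-fold lower with si-hnRNPK, at 64.2% of control (62.9% to 65.5%), but not when scaled, while TNPO3 was at 110% (107% to 113%). None of these 13 genes passed 1.5-fold in the other libraries.

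Of 35 core spliceosome genes tested, 4 were 2-fold and 13 were 1.5-fold lower with si-hnRNPK, and none was 1.5-fold higher. When scaled, 1 (SNRNP200) was 2-fold and 10 were 1.5-fold lower. The median was -0.35, as for the splicing regulators. SNRNP200, the helicase that unwinds U4 from U6, had 159, 50.2, 179 and 110 CPM in the order control, si-hnRNPK, si-PTBP1 and si-lncRNA-LBCS, so the si-hnRNPK library was at 31.6% of control (30.3% to 33.0%). SF3A1 of the U2 particle had 47.5, 21.8, 45.4 and 26.6 CPM and was the lowest of the list in the si-lncRNA-LBCS-labelled library, where 5 of the 35 were 1.5-fold lower. PRPF3 and SNRPD3 were at 46.6% and 47.7% of control with si-hnRNPK. With si-PTBP1 none of the 34 genes tested passed 1.5-fold.

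Of 20 SR-related coactivators, 3 were 2-fold (2 when scaled) and 6 were 1.5-fold lower with si-hnRNPK. SRRM2, a scaffold of nuclear speckles, had 190.3, 61.3, 178 and 77.7 CPM. It was at 32.2% of control with si-hnRNPK (31.0% to 33.5%) and at 40.8% in the si-lncRNA-LBCS-labelled library (39.5% to 42.2%). In the latter library SRRM2 was the 1 gene of the list past 2-fold, and 5 were 1.5-fold lower (4 when scaled), against 5.74% of all genes. ACIN1 was at 43.9% and SCAF4 at 44.9% of control with si-hnRNPK, whereas SCAF1 was at 124%. Of 24 other hnRNP-like regulators tested with si-hnRNPK, 1 was 2-fold and 4 were 1.5-fold lower, which is 16.7%, near the share of all genes. TIA1, which binds uridine-rich RNA, was higher than control in all 3 knockdown libraries, at 111%, 133% and 129.6%. With si-PTBP1, 2 of 25 were 1.5-fold higher, NOVA1 and CELF2 (NOVA1 alone when scaled), against 12.1% of all genes. NOVA1 had 2.74 CPM in the control library and 5.97 CPM with si-PTBP1, and CELF2 had 0.505 and 1.28 CPM. CELF2 thus passed the 1 CPM filter only through the si-PTBP1 library, where it was high, so its count as a rise depends on the filter. In the si-lncRNA-LBCS-labelled library 3 of 24 were 1.5-fold lower, of which NOVA2 at 1.38 and 0.171 CPM passed 2-fold. NOVA2 and MSI1 (1.22 and 0.271 CPM), both among these 3, passed the 1 CPM filter only through the control library. Their counts as decreases therefore depend on the filter. Of 14 nonsense-mediated decay factors 5 were 1.5-fold lower with si-hnRNPK (3 when scaled) and 3 in the si-lncRNA-LBCS-labelled library, and MAGOH of the exon junction complex was the lowest in both, at 52.45% and 58.9% of control. None of the list genes that passed the 1 CPM filter was 1.5-fold higher with si-hnRNPK.

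**Figure D5:**
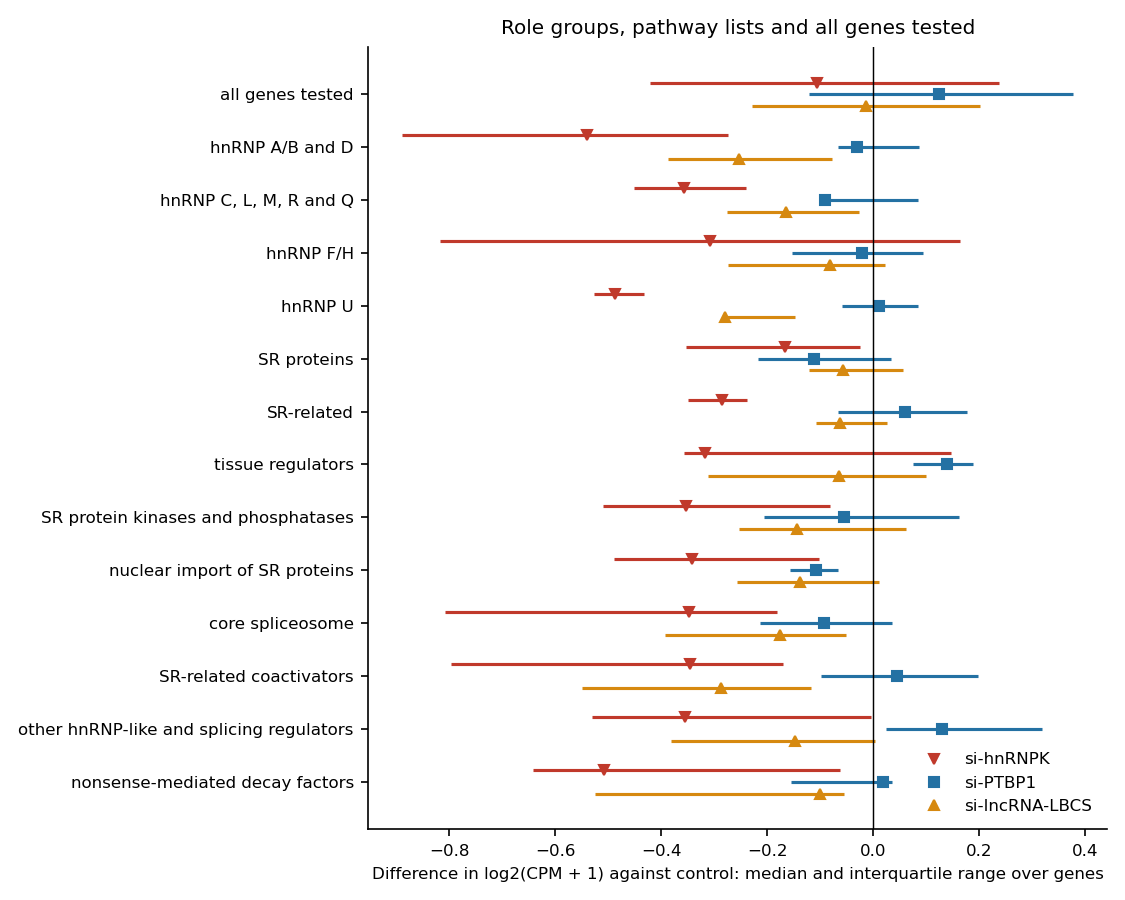
Median change (points) and interquartile range over genes (lines) in log2(CPM + 1) against the control library for each role group of the splicing regulators and each related gene list, beside the median over all genes tested, in the 3 comparisons (1 library per condition). With si-hnRNPK the hnRNP A/B and D genes have a median of -0.54, the SR proteins -0.17 and all genes -0.11.

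The annotation adds what these genes share in transcript structure. A transcript of the nonsense-mediated decay type was annotated for 26 of the 37 genes (70.3%), against 5238 of 11961 expressed protein-coding genes (43.8%), and for all 8 SR proteins and all 4 SR-related genes but 1 of 4 hnRNP F/H genes. A transcript with a retained intron was annotated for 27 (73.0%), against 58.2%. The deposited values count all reads of a gene, so switches between such transcripts were not analysed here. Of the 37 genes, 16 have pseudogenes named after them, 9 share exon bases with another gene on the same strand and 14 on the opposite strand. On opposite strands the largest overlaps were those of HNRNPU with COX20 (3502 exon bases), SRSF9 with GATC (1729) and MBNL1 with MBNL1-AS1 and AC026347.1 (1555). SRSF2 overlaps MFSD11 (1106), HNRNPA2B1 overlaps CBX3 (368) and HNRNPH3 overlaps RUFY2 (115). Whether the counting used strand is not given in the sources used here, so reads of such partners cannot be told apart.

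Members with and without a seed match to the siRNA given were set side by side. With si-hnRNPK the 14 genes with a match had a median change of -0.32 and the 22 without one -0.36. HNRNPD and HNRNPH3, the genes past 2-fold, held no match to either hnRNPK siRNA, while HNRNPA2B1 and RBFOX2 held both, with changes of -0.91 and -0.52. With si-PTBP1 the medians were -0.07 for 12 genes with a match and 0.03 for 24 without. In the si-lncRNA-LBCS-labelled library they were -0.06 for 9 genes and -0.14 for 27. These values describe the members and were not tested.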

How the data were processed

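RNA-seq of UM-UC-3 cells was analysed in 4 libraries of 100-base paired-end reads, 1 per condition. The authors deposited CPM per Ensembl gene for each library. The labels give hg19 as the build, and the aligner, counter, annotation and strand setting are not given in the sources used here. Dividing each CPM by the value of a single read gave whole reads (tolerance 0.001 read) for 100% of genes with reads. The placeholder that stands in for no reads was set to 0.

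Changes were differences in log2(CPM + 1) at a filter of 1 CPM and a threshold of 1 (2-fold). There was no test, since there are no replicates. The members and gene lists were chosen with earlier results of these data known. Members past 1.5-fold, members under 1 CPM and the highest and lowest of each role group were named, and, of each related list, the largest decreases and increases at 10 CPM or more. Other genes were named after their values were seen, and 1 gene of these lists is not reported here by name. The alternatives were a pseudocount of 0.1 CPM, no filter, a filter of 5 CPM, a 1.5-fold threshold, an exact binomial test, median-of-ratios factors, and as reference the other 3 libraries' geometric mean. Exon lengths, positions and 3′ UTRs came from GENCODE release 29 (GRCh38), matched by identifier. No coordinates of the authors were used. The scripts were tested on simulated data. Scripts ran in Python 3.11.15 with scipy 1.17.1 and statsmodels 0.14.6 for statistics, pandas 2.3.3 and numpy 2.4.6 for tables, and matplotlib 3.10.9 for figures.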

Additional observations from a re-analysis of the deposited data

How the results depend on the processing

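With 1 library per condition the spread between cultures is unknown, and the counting intervals (median half-width 2.47 to 2.74 percentage points) set only the counting error. The 2 members past 2-fold with si-hnRNPK became 1 (HNRNPD) against the geometric mean of the other 3 libraries and 7 at 1.5-fold, and the 0 members of the si-lncRNA-LBCS-labelled library became 2 at 1.5-fold. The member median with si-hnRNPK went from -0.35 to -0.24 with median-of-ratios scaling and to -0.26 against the geometric mean. With si-PTBP1 it went from -0.0099 to -0.13 and to 0.0691, and in the si-lncRNA-LBCS-labelled library from -0.10 to -0.0081 against the geometric mean. A pseudocount of 0.1 CPM, no filter and a filter of 5 CPM left these counts as they were. With these settings the medians moved by no more than the median half-width of the single-gene counting intervals on the log2 scale. The filter of 5 CPM kept the same 36 members. Dropping the filter added only ESRP2, which is under 1 CPM and cannot pass 2-fold on this scale. The filter settings therefore could not change the counts. Adding the exact binomial test at q of 0.05, which compares 2 libraries and not the conditions, left the counts at 2, 0 and 0. It was added to the 2-fold threshold, so it could not raise a count. Without that threshold 35, 29 and 27 of the 36 members reached q of 0.05, so this setting says little about the counts. Single members changed sign with median-of-ratios scaling in 3 cases with si-hnRNPK (SRSF1, SRSF2 and SRSF9), 7 with si-PTBP1 and 0 in the si-lncRNA-LBCS-labelled library, and against the geometric mean in 0, 12 and 11 cases. The cause of these moves was not tested beyond the construction of each alternative. No paired analysis was possible because each condition has 1 library.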
